A study of Drosophila melanogaster with 16 samples.

Results

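The genes described here were raised over the wild-type reference in all 4 kinds of Drosophila tumour that the series compared. A gene entered the set when its mean log2 ratio, after each array's median had been subtracted, was 0.7 or more in each of the 4 genotypes, which left 105 of 11196 features (0.938%). In all, 109 features met the limit, and 4 of them were left out by identifier because the rule lists 5 features to leave out. The members were chosen by their ratios to the reference, on the same arrays that are described here. Those ratios are therefore given as a description, and the tests are of the differences between tumour genotypes. The rule set no condition on those differences, but it used the same genotype means. The shares and directions of members called below are thus not free of the choice of members.

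The tumours arose from clones of mutant cells in the larval eye-antennal disc, the epithelial sac that forms the adult eye and antenna. RasV12scrib-, RasV12baz- and RasV12cdc42- tumours carried RasV12, the activated form of the small GTPase Ras, together with a mutation in scrib, baz or cdc42. RafGOFscrib- tumours carried RafGOF, taken here as a gain-of-function form of the kinase Raf, together with a scrib mutation. Tumour RNA came from last-instar larvae on day 10 after egg laying and reference RNA from wild-type discs of the same larval stage on day 5 to 6, all raised at 25 °C, with about 30 to 40 discs dissected for RNA. All groups share that difference in age, so age and tumour cannot be told apart in any ratio to the reference. RNA was taken from discs in which only some cells were mutant, so fewer cells of a type and less RNA per cell cannot be told apart either. How the clones were made and which promoter drove the transgenes are not given in the sources used here.

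Ras passes growth signals through Raf to the MAP kinase cascade. Scrib is a scaffold of the basolateral membrane, Baz an apical scaffold of the Par complex and Cdc42 a small GTPase that acts with that complex, and loss of such proteins disturbs the polarity of epithelial cells. In fly imaginal discs, cells with an activated Ras pathway that also lose polarity are known to overgrow and invade neighbouring tissue, and the JNK and JAK/STAT pathways are known to act in such tumours.

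Each genotype had 4 arrays, 16 in all, on which tumour and reference RNA were hybridised together in different dyes. Tumour RNA was in Cy5 on RasV12scrib- replicates 1 and 3 and on RasV12cdc42- replicates 1 and 2, and in Cy3 on the others. RafGOFscrib- replicates 1 and 2 held identical values at 95.07% of features and correlated at 0.998, against at most 0.14% identical values for any other pair, so they were averaged and counted as 1 sample (replicate 1 below). This left 15 replicates, 4 in each genotype except RafGOFscrib- with 3. The labels call all 16 arrays biological replicates, the averaged pair included. Nothing in the labels sets apart separate crosses, so the spread between replicates may be partly technical. The direction of the ratio, tumour over reference, is likely from the order of the channels in the labels and is not stated, and every "higher" or "raised" below rests on it.

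None of the 105 members could be named. The files and the gene table used here give a single symbol to 71 features and to none of the members, so members appear by identifier and no role is given to them. Of 404 symbols in 24 lists of pathways and cell types, 7 were matched to a feature (Eig71Ee, Idgf3, LanA, Lsp2, Swim, Treh and Ts), none of them a member. The labelled tissue could not be checked by its markers, since 0 of 19 genes on the eye-antennal disc list were matched, and the same holds for haemocytes (0 of 15), muscle (0 of 16), neurons and photoreceptors (0 of 14), glia (0 of 7) and trachea (0 of 11). Lsp2, which encodes a storage protein made by the larval fat body, was the single match of 10 fat body markers. Its centred log2 ratio was -4.28, -4.75, -4.39 and -2.48 on RasV12scrib- replicates 1 to 4. On RafGOFscrib- replicates 1, 3 and 4 it was -3.51, -0.03 and 0.09. It was 2.13, -0.03, 0.01 and -3.16 in RasV12baz- and -0.44, -1.70, -2.40 and -2.69 in RasV12cdc42-. Lsp2 was thus lowest in RasV12scrib- by mean (-3.98, against -1.15, -0.26 and -1.81 in the order above), and its part in the differences between genotypes below was not tested.

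The rise over the reference differed widely in size among the members. The lowest of a member's 4 genotype means was 2 or more for 7 members, from 1 to under 2 for 46 and from 0.7 to under 1 for 52. The 3 members closest above the limit had lowest means of 0.7001 (FBgn0000083), 0.7016 (FBgn0038419) and 0.7043 (FBgn0037850), and the 3 features closest below it had 0.698 (FBgn0029875), 0.690 (FBgn0029506) and 0.690 (FBgn0001297), with no gap at the limit. On single arrays, 96 of 105 members lay above 0 on all 15 replicates and the other 9 on 14 of them, with -0.58 as the lowest value. Of all features, 2.70% lay above 0 on all 15, and since the rule used the same ratios nothing is read from the contrast. Values at or below -0.7 in all 4 genotypes were found for 81 features.

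**Figure D1:**
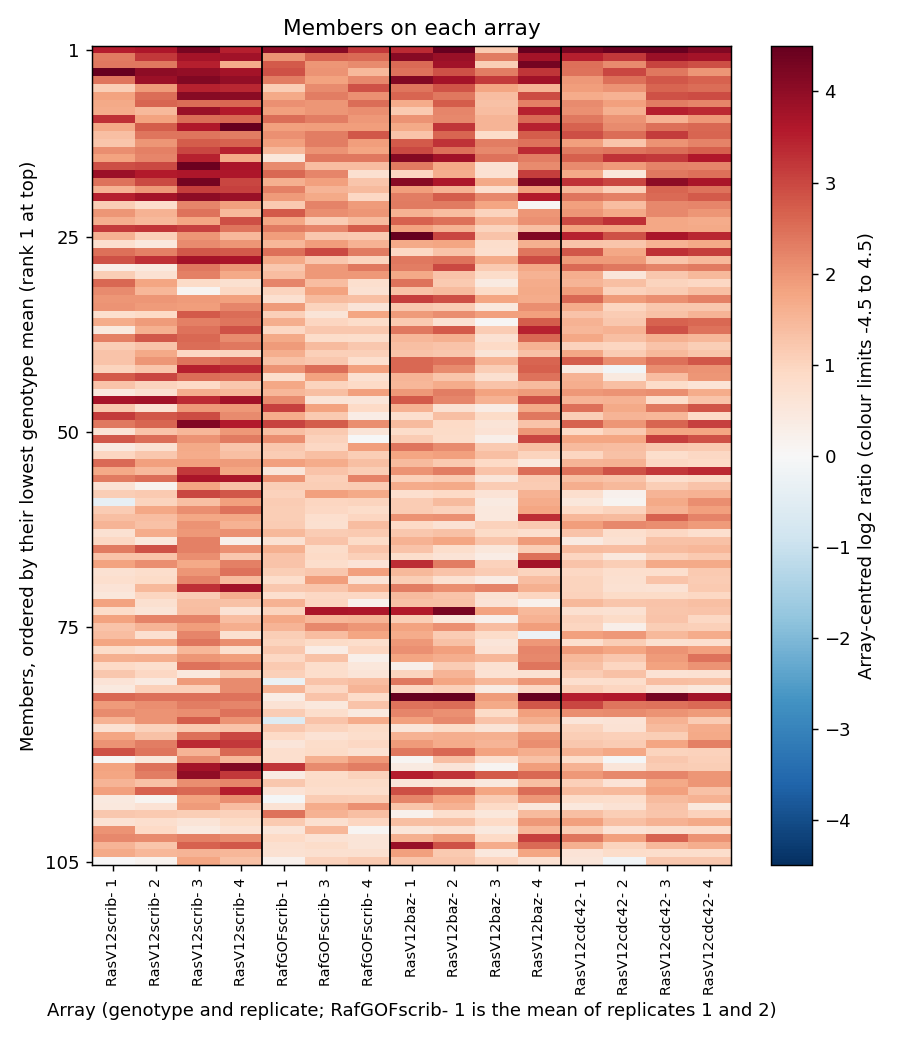
Array-centred log2 ratio of the 105 members (rows, ordered by their lowest genotype mean, highest at the top) on each of 15 replicates (columns, vertical lines between genotypes). Red is above the array's median and blue below it, and 96 members are above 0 on every replicate, which the choice of members favours.

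The member with the highest lowest mean was FBgn0033592. It stood at 3.54, 3.64, 4.27 and 3.51 in RasV12scrib-, at 4.03, 4.11 and 3.19 in RafGOFscrib-, at 3.37, 4.49, 1.17 and 4.78 in RasV12baz- and at 4.27, 4.44, 5.53 and 4.15 in RasV12cdc42-. The RafGOFscrib- arrays lay just below those of RasV12cdc42-, the other pairs of genotypes overlapped, and the lowest value was that of RasV12baz- replicate 3. Its means were 3.74 ± 0.36 (SD, n = 4), 3.78 ± 0.51 (SD, n = 3), 3.45 ± 1.64 (SD, n = 4) and 4.60 ± 0.63 (SD, n = 4), or 13.4-, 13.7-, 10.9- and 24.2-fold over the reference. No difference among the genotypes passed the test for it (limma F-test, adjusted p = 0.684).

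FBgn0032601 came next by lowest mean. Its values were 2.34, 3.18, 3.73 and 3.77 in RasV12scrib-, 2.02, 2.62 and 2.56 in RafGOFscrib-, 4.09, 3.90, 2.33 and 3.75 in RasV12baz- and 3.51, 3.19, 3.86 and 3.76 in RasV12cdc42-. RafGOFscrib- lay lowest, at 2.40 ± 0.33 (SD, n = 3) against means of 3.25 to 3.58 in the other genotypes, but its values overlapped those of RasV12scrib- and RasV12baz-. The F-test gave an adjusted p of 0.194 in limma, and 0.0317 without RasV12baz- replicate 3, the array with the lowest value of its group.

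As a group, the members stood highest in RasV12scrib- and lowest in RafGOFscrib- on the centred scale. The median member mean was 1.97 in RasV12scrib- (3.90-fold over the reference), 1.62 in RasV12baz- (3.07-fold), 1.46 in RasV12cdc42- (2.75-fold) and 1.25 in RafGOFscrib- (2.38-fold). RasV12scrib- gave the highest of the 4 means for 48 members and RafGOFscrib- the lowest for 52. With an equal spread on all arrays, by contrast, RasV12scrib- was highest for 8 members and lowest for 47, and RafGOFscrib- highest for 34 and lowest for 26. On the centred scale the count of members with a mean of 2 or more was 52 in RasV12scrib-, 34 in RasV12baz-, 34 in RasV12cdc42- and 18 in RafGOFscrib-. Members also varied more between replicates than other features did, with a median SD of 0.60 against 0.37 for all features in RasV12scrib-, 0.35 against 0.26 in RafGOFscrib-, 0.54 against 0.28 in RasV12baz- and 0.33 against 0.29 in RasV12cdc42-.

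Arrays of one genotype also differed from each other. The median over members was 1.60, 1.62, 2.27 and 2.13 on RasV12scrib- replicates 1 to 4, and 82 of 105 members were higher in replicates 3 and 4 than in 1 and 2, by a median of 0.59. In RasV12baz- the medians were 1.72, 1.69, 1.01 and 1.94, and replicate 3 was the lowest of the 4 for 79 members. RafGOFscrib- (1.30, 1.29 and 1.21) and RasV12cdc42- (1.56, 1.35, 1.59 and 1.70) were more even. The RafGOFscrib- medians were below those of all arrays of RasV12scrib- and RasV12cdc42-, and above that of RasV12baz- replicate 3.

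Whole arrays also differed in spread, and RasV12scrib- had both the widest arrays by SD and the highest member level. Within RasV12scrib- and RasV12cdc42- the order was not the same. RasV12scrib- replicates 1 and 2 (SD 0.77 and 0.79) had lower member medians than replicates 3 and 4 (0.76 and 0.74). RasV12cdc42- replicate 2, the widest of its 4 (0.65), had the lowest median. Within RasV12baz- the order was the same, with SDs of 0.60, 0.55, 0.44 and 0.64 and medians of 1.72, 1.69, 1.01 and 1.94. It was also the same on RafGOFscrib- replicates 1, 3 and 4 (SD 0.66, 0.51 and 0.43, medians 1.30, 1.29 and 1.21). The SD over all 11196 features was 0.74 to 0.79 on the RasV12scrib- arrays, 0.43 to 0.66 on those of RafGOFscrib-, 0.44 to 0.64 on those of RasV12baz- and 0.51 to 0.65 on those of RasV12cdc42-. Scaling to an equal spread made the median absolute value equal on all arrays, not the SD. By that measure RasV12scrib- replicates 1 and 2 were widest (0.398 and 0.426) and RafGOFscrib- replicate 4 was narrowest (0.143). RasV12cdc42- replicate 2 (0.382) was wider than RasV12scrib- replicates 3 and 4 (0.353 and 0.342). With that scaling the median member mean became 1.48 in RasV12scrib-, 1.60 in RafGOFscrib-, 1.86 in RasV12baz- and 1.59 in RasV12cdc42-. RasV12scrib- thus went from highest to lowest. With quantile normalization the medians were 1.85, 1.64, 1.86 and 1.76 in the same order. The rank of the genotypes on the members as a group therefore depended on the scaling. The median was above 1 in every genotype under all 3 scalings. The choice of members on these arrays favours such medians, so nothing is read from that.

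**Figure D2:**
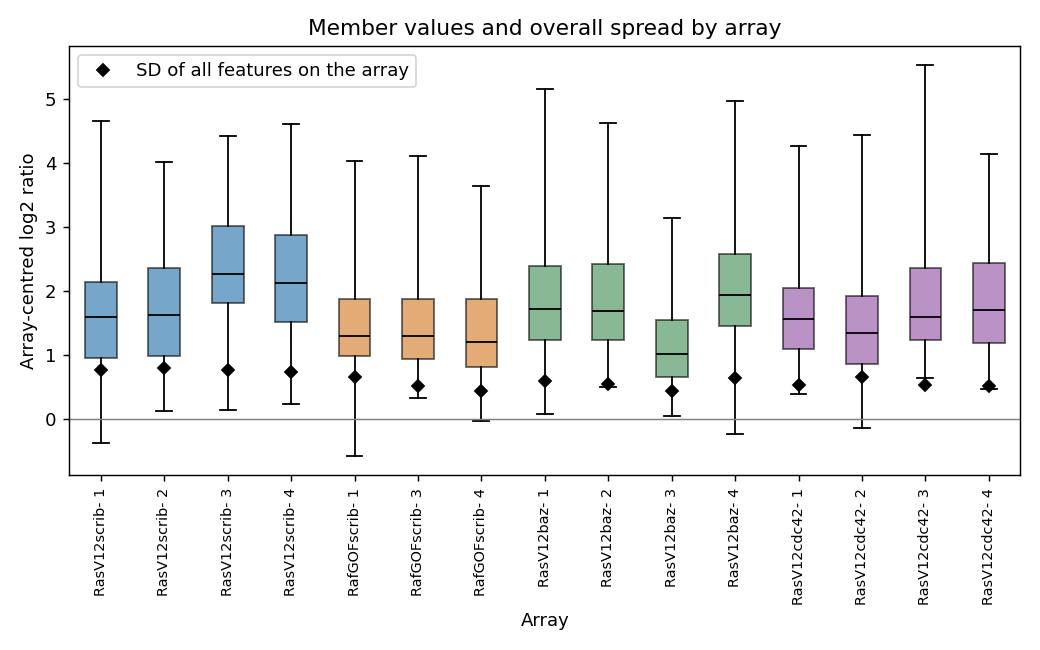
Array-centred log2 ratios of the 105 members on each replicate (boxes, quartiles with the median as a line; whiskers, lowest and highest member) and the SD of all 11196 features on that array (diamonds). RasV12scrib- holds the highest member medians (up to 2.27) and the widest arrays (SD 0.74 to 0.79), and RasV12baz- replicate 3 holds the lowest member median (1.01).

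**Figure D3:**
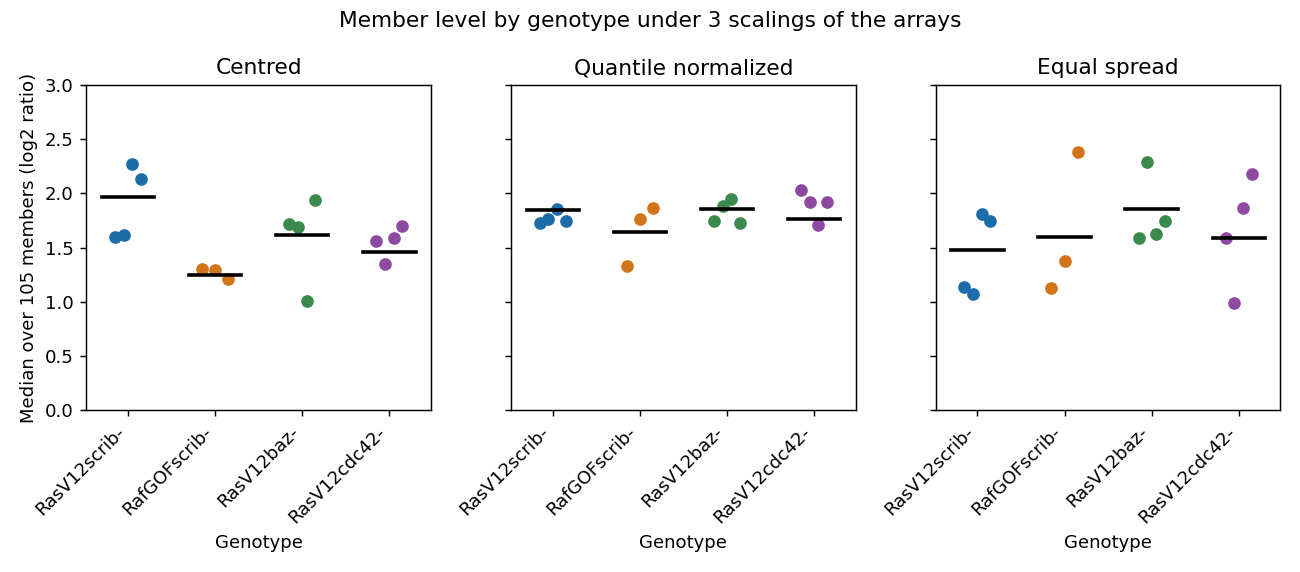
Median log2 ratio over the 105 members on each replicate (points) and the median of the member means per genotype (lines) after centring, quantile normalization and scaling to an equal spread. RasV12scrib- is highest after centring (1.97) and lowest with an equal spread (1.48).

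Order among the members was closer within a genotype than between genotypes. Over the 105 members, a pair of arrays of the same genotype correlated at a median Pearson r of 0.72 (21 pairs, 0.32 to 0.94) and a pair from different genotypes at 0.36 (84 pairs, -0.14 to 0.72). Genes are not independent replicates and the arrays share a kind of reference, so these values are given without a test. Replicates 1 and 2 correlated at 0.84, 0.85 and 0.89 in RasV12scrib-, RasV12baz- and RasV12cdc42-, and replicates 3 and 4 at 0.81, 0.36 and 0.94. Across those pairs the mean r was 0.56, 0.67 and 0.73, so in RasV12scrib- and RasV12cdc42- arrays with neighbouring numbers were more alike than the others. In RasV12cdc42- replicates 1 and 2 held tumour RNA in Cy5 and replicates 3 and 4 in Cy3, so number and dye cannot be told apart there. Between members, over the 15 replicates, the median r of the 5460 pairs was 0.24, and 73.1% of pairs lay above 0.

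Differences among the 4 genotypes passed the limma F-test (adjusted p under 0.05, adjusted over all features) for 17 of the 105 members (16.2%), against 4.38% of all features. In 13 of the 17 RasV12scrib- had the highest mean and in 12 RafGOFscrib- had the lowest. The median over these 17 members was 3.05 in RasV12scrib-, 2.34 in RasV12baz-, 1.75 in RasV12cdc42- and 1.30 in RafGOFscrib-. The same centred values gave the calls, so the order and size of these medians are a description only. Leaving out RasV12baz- replicate 3 gave 28 calls, and 32 were made without RasV12baz- replicate 4, with no share over all features given for either. The count of members was 28 (5.04% of all features) with quantile normalization, and these included 13 of the 17. With an equal spread on all arrays it was 8 (3.43% of all features), and these included 3 of the 17. With replicates 1 and 2 and replicates 3 and 4 of a genotype as random blocks it was 1 (0.706% of all features). That 1 was FBgn0032607, chosen for the text after its values were seen.

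FBgn0032607 measured 1.84, 2.64, 2.57 and 3.55 in RasV12scrib-, 0.63, 0.78 and 0.78 in RafGOFscrib-, 2.89, 2.60, 1.77 and 2.50 in RasV12baz- and 1.44, 1.46, 1.86 and 1.33 in RasV12cdc42-. RafGOFscrib- lay below all other arrays, at 0.73 ± 0.09 (SD, n = 3) against 2.65 ± 0.70 (SD, n = 4) in RasV12scrib-. The F-test gave an adjusted p of 0.00336 in limma and stayed under 0.05 in all 25 alternative settings run, with 0.0321 under the random block.

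Members also differed in how evenly the genotypes raised them. The gap between a member's highest and lowest genotype mean had a median of 1.04 (0.16 to 3.38), against 0.47 over all features. It was 0.5 or less for 19 members and over 2 for 10. In 62 members no other genotype mean was 2-fold or more apart from that of RasV12scrib-. The ends of this range are described next and were chosen after their values were seen.

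The widest gap was that of FBgn0010039. It was 2.57, 2.47, 2.48 and 2.43 in RasV12scrib-, 0.32, 1.27 and 0.81 in RafGOFscrib-, 5.16, 4.63, 1.91 and 4.98 in RasV12baz- and 3.55, 3.62, 4.30 and 3.78 in RasV12cdc42-. The RafGOFscrib-, RasV12scrib- and RasV12cdc42- arrays did not overlap, and RasV12baz- spanned the range of the last 2 with replicate 3 far below its other arrays. The means were 0.80 ± 0.47 (SD, n = 3), 2.49 ± 0.06 (SD, n = 4), 3.81 ± 0.34 (SD, n = 4) and, for RasV12baz-, 4.17 ± 1.52 (SD, n = 4). The limma F-test gave an adjusted p of 0.00695, and 0.147 with the random block.

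FBgn0036672 had the narrowest gap. Its values were 1.21, 0.93, 0.48 and 1.21 in RasV12scrib-, 1.08, 0.79 and 0.58 in RafGOFscrib-, 1.0, 1.54, 0.66 and 0.69 in RasV12baz- and 1.13, 1.31, 0.64 and 0.67 in RasV12cdc42-. All 4 genotypes overlapped, with means of 0.82 to 0.97 and an F-test adjusted p of 0.984 in limma.

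RafGOFscrib- and RasV12scrib- share the scrib mutation and differ in the oncogene. Of the 105 members, 12 were lower in RafGOFscrib- and 0 higher (limma, adjusted p 0.00432 to 0.0459), against 0.634% of all features lower, 0.625% higher and 1.26% in either direction. The 12 differences ran from -2.50 to -1.20 on the log2 scale. In each of the 12 every RafGOFscrib- array lay below every RasV12scrib- array. The same arrays gave the calls and no share over all features is given, so nothing is read from this. Over all 105 members the median difference was -0.62, against 0.02 over all features. For the members it was 0.03 with quantile normalization, which is near 0, and 0.14 with an equal spread, where the sign changed. These differences come from the fit with a dye term. By the plain genotype medians RafGOFscrib- (1.64) stayed below RasV12scrib- (1.85) with quantile normalization. The count was 6 with quantile normalization, where 5 were lower and 1 higher, and 1 with an equal spread. It was 6 with the replicate number as a block, all lower, and 2 with the random block. Single arrays also moved it: it was 4 and 5 without RafGOFscrib- replicates 3 and 4, and 6 without RasV12scrib- replicate 4. It was 7 without RasV12baz- replicate 2 and 5, 7, 5 and 6 without RasV12cdc42- replicates 1 to 4. No share over all features is given for these alternative settings.

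FBgn0031461, which had the lowest F-test p among the members, had the largest of these 12 differences. It was 3.72, 3.79, 3.35 and 3.77 in RasV12scrib-, 2.14, 0.59 and 0.53 in RafGOFscrib-, 2.76, 2.19, 1.56 and 2.86 in RasV12baz- and 1.52, 1.56, 0.80 and 1.27 in RasV12cdc42-. Every RasV12scrib- array lay above every array of the other 3 genotypes. The limma F-test gave an adjusted p of 0.00247, and 0.0568 with the random block. The level was 5.67-fold lower in RafGOFscrib- than in RasV12scrib- (log2 difference -2.50 ± 0.42 SE, limma adjusted p = 0.00826), a call that was lost under the random block (-2.45, adjusted p = 0.0974 with an estimated correlation) and without RafGOFscrib- replicate 3 or 4 (-2.25 and -2.22).

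FBgn0001257 followed, chosen here for its size. It was 3.51, 3.76, 4.04 and 3.88 in RasV12scrib- and 1.90, 1.72 and 0.93 in RafGOFscrib-, without overlap, and it lay between them in RasV12baz- (2.30, 2.73, 2.17 and 3.58) and RasV12cdc42- (2.40, 2.25, 2.55 and 2.77) apart from the RasV12baz- replicate 4 value, which exceeded the lowest RasV12scrib- array. The difference between RafGOFscrib- and RasV12scrib- was -2.38 ± 0.35 SE (5.20-fold, limma adjusted p = 0.00432). The call was lost with the random block (-2.29, adjusted p = 0.089 with an estimated correlation) and with an equal spread (-1.38, adjusted p = 0.202).

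RasV12baz- and RasV12scrib- share the oncogene and differ in the polarity gene. Here 8 members were lower in RasV12baz- and 0 higher (limma, adjusted p 0.00531 to 0.0408), against 0.947% of all features lower, 2.30% higher and 3.25% in either direction. The 8 differences ran from -2.45 to -1.28, and in 6 of them the arrays did not overlap, from which nothing is read for the same reason. The median over all members was -0.33, against 0.08 with quantile normalization and 0.21 with an equal spread, where the direction flipped and the count of called members was 0. It was 0 as well with the random block. With quantile normalization 9 members were called, 5 of them higher and 4 lower. Calls numbered 5 without RasV12scrib- replicate 4, 5, 4 and 20 without RasV12baz- replicates 1, 2 and 4, and 5 without any one of the RasV12cdc42- replicates. Shares over all features are not given for the alternative settings.

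FBgn0014388 and FBgn0031307, chosen here for the size of their differences, headed this group. FBgn0014388 was 1.82, 2.46, 3.73 and 4.18 in RasV12scrib-, 3.20, 2.13 and 2.31 in RafGOFscrib-, 0.39, 0.59, 0.13 and 1.87 in RasV12baz- and 1.55, 0.56, 1.15 and 1.09 in RasV12cdc42-. Both scrib genotypes stood at the high end and the other 2 at the low end, with RasV12baz- replicate 4 overlapping the lowest RasV12scrib- array. Its difference of -2.45 ± 0.54 SE in RasV12baz- (5.48-fold, limma adjusted p = 0.0236) lost its call in 6 of 25 settings: the random block (adjusted p = 0.128 with an estimated correlation), an equal spread (-1.77, adjusted p = 0.182), and those without RasV12scrib- replicate 4 (-1.86) and without RasV12baz- replicate 1, 2 or 3 (-2.34, -2.40 and -2.25).

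FBgn0031307 was even in RasV12scrib- and uneven elsewhere. It was 3.85, 3.57, 3.64 and 3.64 in RasV12scrib-, 2.58, 2.21 and 0.73 in RafGOFscrib-, 0.97, 1.62, 0.68 and 3.12 in RasV12baz- and 1.69, 0.51, 2.36 and 2.49 in RasV12cdc42-, and no array of another genotype reached those of RasV12scrib-. Its difference of -2.37 ± 0.57 SE in RasV12baz- (5.18-fold, limma adjusted p = 0.0353) lost its call in 15 of 25 settings, among them the random block (adjusted p = 0.342 with an estimated correlation). Of the 15, 10 left out 1 replicate: RasV12scrib- 1, 2 or 4, RasV12baz- 1, 2 or 3, or any RasV12cdc42- replicate (-2.61 to -2.07).

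RasV12cdc42- and RasV12scrib- again differ in the polarity gene. Of the members, 14 were lower in RasV12cdc42- and 1 higher (limma, adjusted p 0.0012 to 0.049), against 1.44% of all features lower, 2.86% higher and 4.30% in either direction. The 14 differences ran from -2.37 to -0.94, and the arrays did not overlap in 12 of them, from which nothing is read either. The median over all members was -0.22, against 0.14 with quantile normalization and 0.24 with an equal spread, so its sign changed in this fit. By the plain genotype medians RasV12cdc42- (1.76) stayed below RasV12scrib- (1.85) with quantile normalization. With quantile normalization 12 were called, 7 higher and 5 lower, and with an equal spread 3 were called, 2 higher and 1 lower. With the random block 3 were called, all lower, and with tumour RNA in Cy3 alone 4 were, all lower. Leaving out 1 array of RasV12cdc42- at a time gave 6, 7, 6 and 7 calls for replicates 1 to 4. For the alternative settings no share over all features is given. This comparison and the previous pair all use the RasV12scrib- arrays, so their counts are not independent of each other.

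The largest difference was again that of FBgn0031461, which was 5.16-fold lower in RasV12cdc42- than in RasV12scrib- (-2.37 ± 0.35 SE, limma adjusted p = 0.0012). This call held in all 25 alternative settings run, with a difference of -1.41 (adjusted p = 0.0139) with an equal spread. FBgn0031975, chosen for its size, was next. It was 2.35, 2.53, 3.68 and 3.67 in RasV12scrib-, 2.03, 1.06 and 2.24 in RafGOFscrib-, 1.06, 1.19, 0.53 and 1.17 in RasV12baz- and 1.36, 1.29, 0.75 and 0.86 in RasV12cdc42-, which did not overlap RasV12scrib-. Its difference in RasV12cdc42- was -1.99 ± 0.33 SE (3.98-fold, limma adjusted p = 0.00267), and -1.25 with an equal spread (adjusted p = 0.416).

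FBgn0034143, the second member by F-test, was also lower in RasV12cdc42- than in RasV12scrib-. It was 2.87, 3.28, 3.75 and 3.66 in RasV12scrib-, 1.70, 1.20 and 1.0 in RafGOFscrib-, 2.38, 2.43, 1.71 and 2.93 in RasV12baz- and 1.90, 1.90, 1.25 and 1.45 in RasV12cdc42-. RasV12scrib- did not overlap RafGOFscrib- or RasV12cdc42-, and RasV12baz- overlapped RasV12scrib- through replicate 4 and RasV12cdc42- through replicate 3. The differences from RasV12scrib- were -1.99 ± 0.33 SE in RafGOFscrib- (limma adjusted p = 0.0076), -1.76 ± 0.28 SE in RasV12cdc42- (0.00171) and -0.93 ± 0.31 SE in RasV12baz- (0.116). The F-test for it gave 0.00281, but 0.069 with the random block and 0.0577 with an equal spread.

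The single member that was higher in RasV12cdc42- than in RasV12scrib- was FBgn0003328. It was 0.65, 0.77, 0.57 and 0.86 in RasV12scrib-, 1.19, 0.73 and 0.97 in RafGOFscrib-, 1.36, 1.36, 0.89 and 1.95 in RasV12baz- and 1.83, 1.35, 1.55 and 1.70 in RasV12cdc42-. Every RasV12cdc42- array lay above every RasV12scrib- array, by a difference of 0.89 ± 0.21 SE (1.86-fold, limma adjusted p = 0.0271). With an equal spread the difference was 1.18 (adjusted p = 0.0372). The call was lost with the random block (adjusted p = 0.378 with an estimated correlation), with tumour RNA in Cy3 alone (0.81, adjusted p = 0.257), and without RasV12scrib- replicate 1 or 3 (0.89 and 0.86) and without RasV12cdc42- replicate 1, 3 or 4 (0.78, 0.94 and 0.88).

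**Figure D4:**
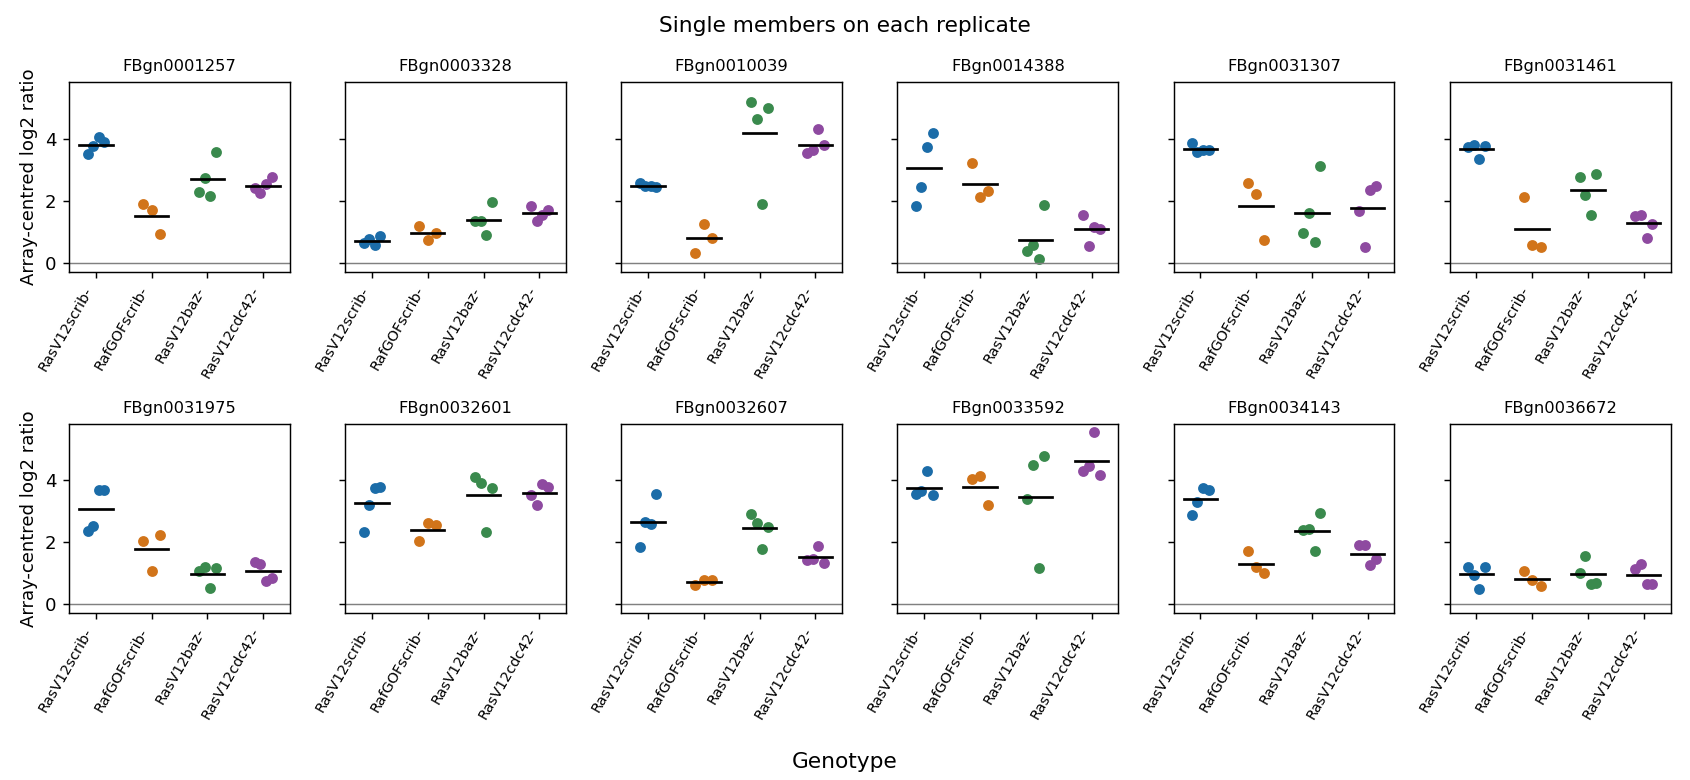
Array-centred log2 ratio of the 12 members described singly, by genotype (points, replicates; lines, genotype means). FBgn0031461 lies at 3.35 or more on all RasV12scrib- arrays and at 2.86 or less on every other array, whereas for FBgn0033592 RafGOFscrib- (up to 4.11) and RasV12cdc42- (from 4.15) alone do not overlap.

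RasV12cdc42- and RasV12baz- were not told apart by any member. No member passed the limma test at an adjusted p under 0.05, against 0.0357% of all features (4 features, 0.0179% higher in RasV12cdc42- and 0.0179% lower), while 22 members (21%) and 803 features (7.17%) had an unadjusted p under 0.05. The median difference was 0.02. The count was 2 with quantile normalization and without RasV12baz- replicate 4, and 38 with array weights, of which 25 were higher and 13 lower in RasV12cdc42-. No share over all features is given for these settings, so more calls among members cannot be told from more calls among all features. The absence of calls does not show that the genotypes were alike.

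Dye orientation was checked beside these comparisons, since RafGOFscrib- and RasV12baz- held no swapped array. The dye term had an unadjusted p under 0.05 for 5 members (4.76%) and 13.3% of all features. After adjustment no feature passed, member or not (limma, lowest adjusted p = 0.284 for members and for all features). The absence of calls therefore does not show that dye had no effect. Only RasV12scrib- and RasV12cdc42-, which held both orientations, inform the term.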

How the data were processed

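The authors deposited log2 ratios of the 2 channels, 1 value per feature and array, with the direction not stated. The scanner, background correction, normalization and filters behind them are not given in the sources used here, and neither is signal over background, so precision comes from the number of arrays alone. That the base is 2 was inferred from the values. Per the labels' protocols, RNA was amplified and labelled with random hexamers. Members and gene lists were chosen with earlier results of these data known, so no count of members is independent evidence of the rise over the reference.

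Each array's median (-0.12 to 0.48 as deposited) was subtracted, and RafGOFscrib- replicates 1 and 2 were averaged. With limma 3.58.1 in R 4.3.3, the 11196 features were fitted over the 15 replicates with 4 genotype means and a term for dye orientation, with empirical Bayes moderation, an F-test over the 4 genotypes and 4 contrasts. P-values are two-sided and adjusted by Benjamini-Hochberg over all features, with a threshold of 0.05. Fold values are powers of 2 of the log2 differences. Same-numbered arrays of RasV12scrib- and RafGOFscrib- (r 0.13 to 0.28) and of RasV12scrib- and RasV12cdc42- (r 0.21 to 0.28) all deviated together from their genotype means. In the other comparisons not every same-numbered pair was over 0.1. Some arrays with different numbers were as close, such as RasV12scrib- replicate 1 with RasV12cdc42- replicate 2 (r 0.35, against 0.26 with RasV12cdc42- replicate 1). The main fit, which gave the p-values above unless another setting is named, does not pair arrays. The replicate number entered as a block in an alternative setting only. Any pairing by number rests on the data and not on the labels. The fit was also run on simulated data with independent arrays of equal spread, unlike the arrays here, so nothing is read from it. Random blocks were the pairs of replicates 1 and 2 and of replicates 3 and 4 within a genotype, with an estimated correlation of 0.503. In RasV12cdc42- these blocks coincide with dye orientation. An equal spread was set with limma's median absolute value scaling. Counts and figures used Python 3.11.15, pandas 2.3.3 and matplotlib 3.10.9. Since no member had a symbol, the rule for named genes gave the 2 members with the highest lowest mean and the 2 with the lowest F-test p. All others named, except those beside the limit, were chosen after their values were seen. No list could be described, because at most 1 gene of each was matched. No promoter or protein sequence was used here.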

Additional observations from a re-analysis of the deposited data

Results flagged for a closer look

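Among members described singly, FBgn0010039 on RasV12baz- replicate 3 (1.91, against 4.63 to 5.16 on the other 3 arrays) and FBgn0031461 on RasV12scrib- replicate 3 (3.35, against 3.72 to 3.79) lay far from the other arrays of their genotype by Dixon's test. Over all members 14 of 315 groups of 4 arrays did so (4.44%), and chance gives about 1 in 20.

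The tested differences between genotypes that a reader may want to look at again are those of FBgn0031461 and FBgn0001257 in RafGOFscrib- against RasV12scrib- (-2.50 and -2.38 on the log2 scale), of FBgn0014388 and FBgn0031307 in RasV12baz- against RasV12scrib- (-2.45 and -2.37), of FBgn0031461, FBgn0031975 and FBgn0003328 in RasV12cdc42- against RasV12scrib- (-2.37, -1.99 and 0.89), and the 17 members that differed among the 4 genotypes.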

How the results depend on the processing

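All counts below are members past an adjusted p of 0.05 in limma. Shares over all features are given above for the F-test with quantile normalization, the random block and an equal spread. For the other alternative settings, here and above, none is given. A change in the members cannot be told there from a change in all features. The members called in an alternative setting need not be those called in the main fit. Differences among the 4 genotypes (17) numbered 28 with quantile normalization, 26 with no dye term, 58 with array weights, 34 with RafGOFscrib- replicates 1 and 2 kept separate, 1 with the random block, 15 to 32 with 1 replicate left out and, added after seeing the data, 33 without RafGOFscrib- replicate 1 and RasV12baz- replicate 4 and 8 with an equal spread. RafGOFscrib- against RasV12scrib- (12) gave 5 without centring, 6 with quantile normalization, 2 with the random block, 19 without those 2 arrays, 1 with an equal spread and 4 to 18 with 1 replicate left out. RasV12baz- against RasV12scrib- (8) gave 15 with no dye term, 0 with the random block, 20 with array weights, 23 without those 2 arrays, 0 with an equal spread and 4 to 20 with 1 replicate left out. RasV12cdc42- against RasV12scrib- (15) gave 3 with the random block, 4 with tumour RNA in Cy3 alone, 3 with an equal spread and 6 to 19 with 1 replicate left out. RasV12cdc42- against RasV12baz- (0) gave 2 with quantile normalization, 1 with no dye term, 38 with array weights, 5 without those 2 arrays and 0 to 2 with 1 replicate left out. The cause of these changes was not tested. The number of members (105) was 187 without centring, 186 with quantile normalization, 53 at a limit of 1, 187 at a limit of 0.5 and 99 to 121 with 1 replicate left out, when at least 95 of the 105 were kept. No named difference changed sign in any of the 25 settings.

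With the replicate number as a block, RafGOFscrib- against RasV12scrib- gave 6, RasV12cdc42- against RasV12scrib- 14, the F-test 19 and the other contrasts 8 and 0. Over all genotypes, arrays with the same number correlated over 0.1 in 12 of 21 pairs (median 0.13) and arrays with different numbers in 20 of 63 (median -0.05), and 7 of 15 arrays correlated best with their own number. The planned count of AP-1 motifs in promoters was not run, because no sequence table was used here.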
